A study of Mus musculus with 12 samples.

Results

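Neurotransmitter receptors and the scaffold proteins that hold them at the postsynaptic membrane were examined as targets of eIF4G2 in mouse cortical neurons. Genes were taken by name, from the symbol families of glutamate, GABA, glycine, acetylcholine, serotonin, dopamine and adrenergic receptors, of their auxiliary and trafficking proteins, and of the Dlg, Dlgap, Shank and Homer scaffolds. Genes with symbols that start with Cacn, Cacng genes included, and Grik1 were left out. The auxiliary proteins below therefore include no Cacng gene. The rule found 44 of the 3366 named 5′ UTRs in the tables, and it used no measured value. It fits 144 protein-coding genes of GENCODE M21 by name, so 44 of 144 were listed, and the others, AMPA receptor subunits and gephyrin among them, were not analysed here.

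The study asked whether neuronal activity changes where eIF4G2 sits on messenger RNA. It used crosslinking immunoprecipitation (CLIP), in which ultraviolet light joins proteins to the RNA they touch, eIF4G2 is pulled down with an antibody, and the RNA fragments that come with it are sequenced as tags. Both groups were primary cortical neurons cultured from CD-1 mouse embryos, each replicate pooled from several dishes, and both received cycloheximide, a blocker of translation elongation, for 2 min before harvest. Resting neurons got no KCl. Depolarized neurons were silenced for 2 h with tetrodotoxin, which blocks sodium channels, and DL-AP5, which blocks NMDA receptors, then exposed to 55 mM KCl for 1 h and left to recover for 30 min.

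eIF4G2 resembles the carboxy-terminal part of the initiation factor eIF4G but lacks the stretch that binds the cap-binding protein eIF4E, and it takes part in forms of translation initiation that depend less on eIF4E. Excitatory synapses in the cortex use AMPA, NMDA and kainate receptors for fast signals and metabotropic receptors for slower ones. At these synapses PSD-95, GKAP, Shank and Homer proteins form layers that link receptors to signalling enzymes and actin. Inhibitory synapses use GABA-A receptor channels, and GABA-B receptors act more slowly through G proteins.

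The tables held 6 resting libraries and 5 distinct depolarized ones, since the values labelled depolarized replicate 5 are those of resting replicate 5 again and were counted once, as resting. Tags on 5′ UTRs ran from 306 to 3224 in the resting libraries and from 264 to 5240 in the depolarized ones, 15767 in all, and the 2 libraries of replicate 1 held 53.7% of them. A library in which a gene had no tag still allows up to 3 tags, or 573 CPM (tags scaled to a library's total) for the library with the most tags and 11364 CPM for that with the fewest. Of 17 neuron markers 10 were listed, with 50 resting and 129 depolarized tags. Of these 10, 3 (30%) were called higher after depolarization by the pooled test described further on, and 0 lower. Of all tagged 5′ UTRs, that test called 5.21% higher and 4.51% lower. Neuron markers took 0.217% to 4.25% of the tags of a resting library and 0.546% to 1.84% of a depolarized one. Of 10 astrocyte markers 3 were listed, with 12 tags, and of 7 microglia markers 1, with 1 tag. No listed 5′ UTR belonged to the 8 oligodendrocyte or 5 endothelial markers. Astrocyte markers took 0% to 0.124% of the tags of a resting library and 0% to 0.134% of a depolarized one, and the part of neuron and astrocyte markers in the results was not tested. In such bulk libraries fewer cells of a type and less RNA per cell cannot be told apart, and, as the tables hold no measure of transcript abundance, neither can more transcript and more eIF4G2 on each transcript.

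The study names CGCGGC as the hexamer of eIF4G2 binding. The windows that follow come from the 5′ UTRs of Homer1, Dlg4, Gabbr1 and Grik5. They are shown because these are 4 of the 5 genes that the pooled comparison of conditions called, as described further on. Each is read 5′ to 3′ on the gene's own strand in GRCm38, from the longest 5′ UTR that GENCODE M21 annotates, and capitals mark the hexamer.
Homer1, chr13:93304302-93304331, plus strand: gggggcacgagcCGCGGCtgccgtgcctcg
Homer1, chr13:93304348-93304377, plus strand: ctcgcctcagcgCGCGGCcgccgggagctt
Dlg4, chr11:70018460-70018489, plus strand: cctcctcggctcCGCGGCtacatcggccgc
Dlg4, chr11:70018889-70018918, plus strand: cctactcgccgcCGCGGCcaggccccccaa
Gabbr1, chr17:37046061-37046090, plus strand: gcaccgtgctctCGCGGCcgccgtcgcccc
Gabbr1, chr17:37046217-37046246, plus strand: agaacggggagcCGCGGCcgggcctgggcc
Grik5, chr7:25068540-25068569, minus strand: gcgagtgggggcCGCGGCagctgcgtcccc
All 7 windows lie in exons, within the 5′ UTR. The second Dlg4 hexamer ended 13 bases before the start codon and the Grik5 hexamer 29 bases before it, whereas the Homer1 hexamers ended 978 and 932 bases before it. The tables give tags per 5′ UTR and no positions inside it, so a window shows where the letters are and not where a tag was.

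Every one of the 44 genes had at least 1 tag, and together they had 190. Tags were few: 15 genes had 1 tag, 13 had 2 to 3, 10 had 4 to 9 and 6 had 10 or more. The 6 were Homer1 with 24 tags, Gabra3 with 15, Dlg4 and Gabbr1 with 13 each, and Cnih3 and Grin2b with 10 each. They are 13.6% of the 44 genes, beside 9.42% of all listed 5′ UTRs with 10 tags or more. In the depolarized libraries 39 genes had a tag, and in the resting libraries 23. Of the 44, 21 (47.7%) were tagged in depolarized libraries only, beside 36.3% of all tagged 5′ UTRs, and 5 (11.4%) in resting libraries only, beside 27.9%. The depolarized libraries also held 59.0% of all tags. The plot of tags by library shows how thin the data are, with 20 of the 44 genes tagged in 1 library and 8 in 5 or more.

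**Figure D1:**
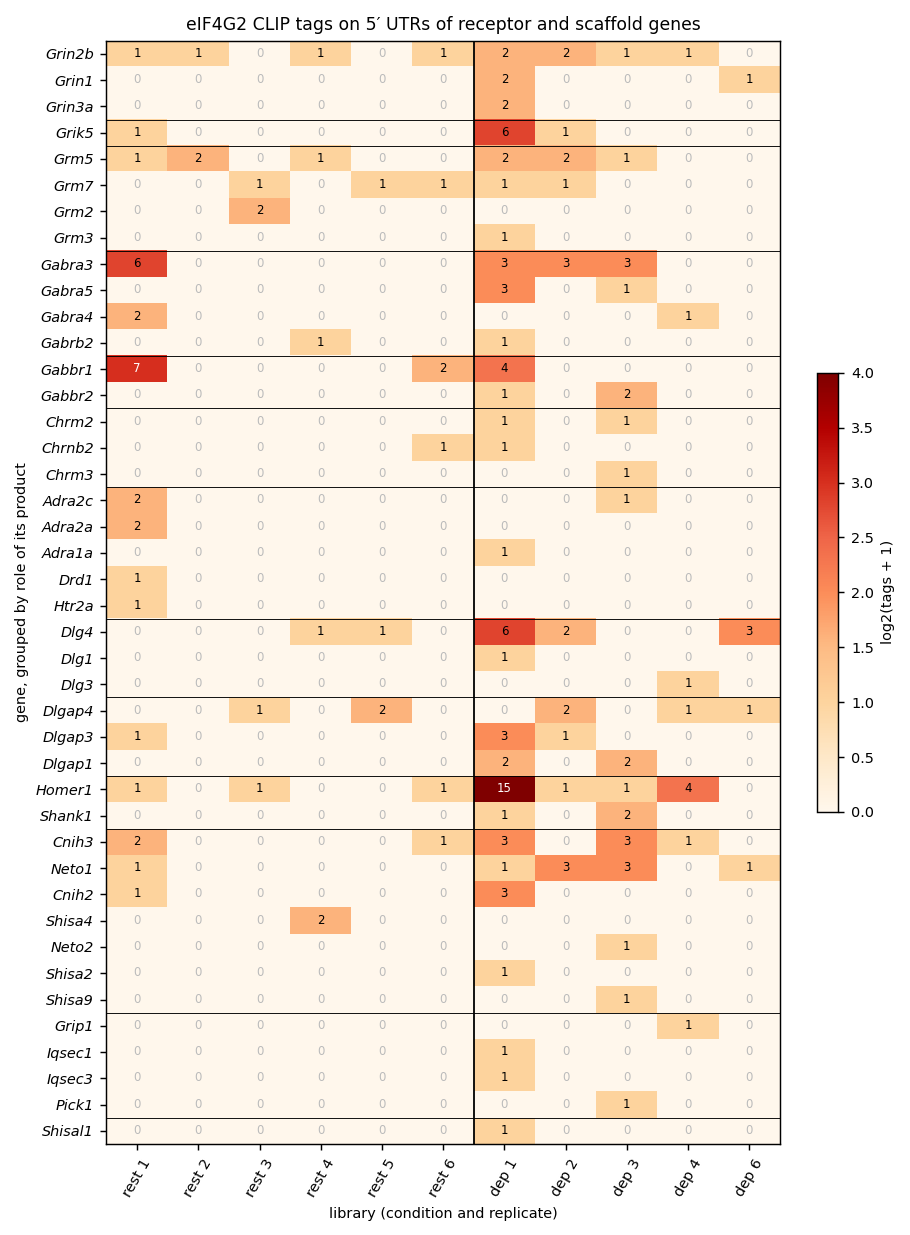
Tags on the 5′ UTRs of 42 of the 44 genes (rows, grouped by the role of the product) in each of the 11 distinct libraries (columns; rest, resting; dep, depolarized; numbers are replicates); each cell prints its tag count and its colour is log2(tags + 1). Most cells are 0, and the highest count is the 15 tags of Homer1 in depolarized replicate 1.

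As a share of each library, the 44 genes took 0.993%, 0.809%, 1.63%, 0.960%, 0.431% and 0.767% of tags in resting replicates 1 to 6. In depolarized replicates 1, 2, 3, 4 and 6 they took 1.35%, 1.88%, 1.18%, 1.82% and 2.27%. The depolarized shares lay above the resting ones except that resting replicate 3, with 5 tags on these genes among 306, lay inside the depolarized range. Resting libraries averaged 0.932% ± 0.398 (SD, n = 6) and depolarized ones 1.70% ± 0.438 (SD, n = 5). No test was made of this difference, as the genes were chosen with earlier results of these data known. Summed over libraries, 58 of 6471 resting tags (0.896%, Wilson 95% interval 0.694 to 1.16) and 132 of 9296 depolarized tags (1.42%, 1.20 to 1.68) fell on them. Depolarized replicate 1 held 37.4% of the tags on these genes and 33.2% of all tags.

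**Figure D2:**
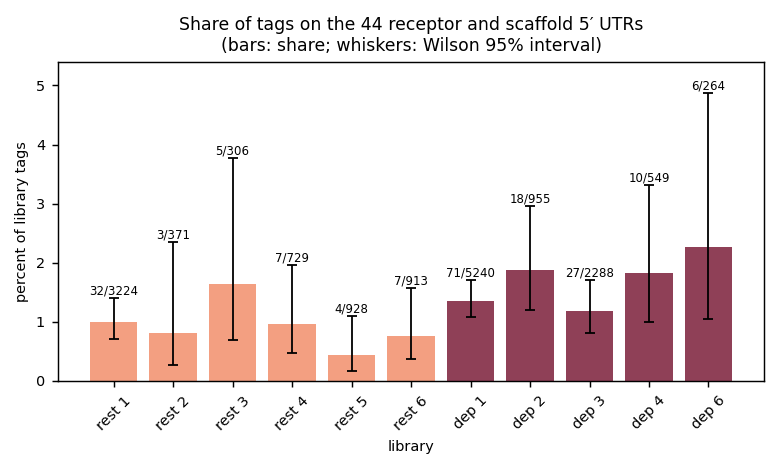
Percent of each library's 5′ UTR tags that fell on the 44 genes; bars are shares, whiskers Wilson 95% intervals, which cover counting error only, and the numbers are tags on these genes over all tags. The 5 depolarized shares run from 1.18% to 2.27% and the 6 resting shares from 0.431% to 1.63%, with wide intervals in the shallow libraries.

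By kind of protein, the gap between conditions in summed tags was widest for scaffolds among the 5 classes tagged in both conditions. The 8 scaffold genes had 9 resting and 49 depolarized tags, a depth-scaled ratio of 3.79 (exact 95% counting interval 1.84 to 8.78). They took on average 0.214% ± 0.241 (SD, n = 6) of a resting library and 0.798% ± 0.509 (SD, n = 5) of a depolarized one. The 7 auxiliary subunits had 7 and 21 tags, a ratio of 2.09 (0.855 to 5.82), with mean shares of 0.0847% ± 0.109 and 0.275% ± 0.102. For the 8 glutamate receptor subunits, with 14 and 26 tags, the ratio was 1.29 (0.651 to 2.68), and for the 8 GABA receptor subunits, with 21 and 25 tags, it was 0.829 (0.445 to 1.56). Mean shares ran the other way for both, from 0.414% ± 0.382 at rest to 0.316% ± 0.207 for glutamate and from 0.170% ± 0.213 to 0.219% ± 0.138 for GABA receptors, differences smaller than the spread between libraries. The 8 acetylcholine and monoamine receptors had 7 and 6 tags, a ratio of 0.597 (0.166 to 2.07), with mean shares of 0.0493% ± 0.0801 and 0.0377% ± 0.0578. The ratios of the receptor classes turned with 1 library: without resting replicate 1 the ratio was 0.826 (0.394 to 1.85) for glutamate, 2.18 (0.754 to 8.63) for GABA and 2.10 (0.254 to 96.4) for acetylcholine and monoamine receptors. For scaffolds it was then 2.45 (1.10 to 6.40) and for auxiliary subunits also 2.45 (0.730 to 12.8). Without both libraries of replicate 1 it was 2.40 (0.984 to 6.69) for scaffolds and 3.47 (0.953 to 19.0) for auxiliary subunits, so scaffolds no longer came first, and both intervals include 1. These alternatives were chosen after seeing the data. All 4 trafficking genes were at 0 at rest and had 1 tag each after depolarization. These are descriptions of classes, and differences between the classes were not tested.

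**Figure D3:**
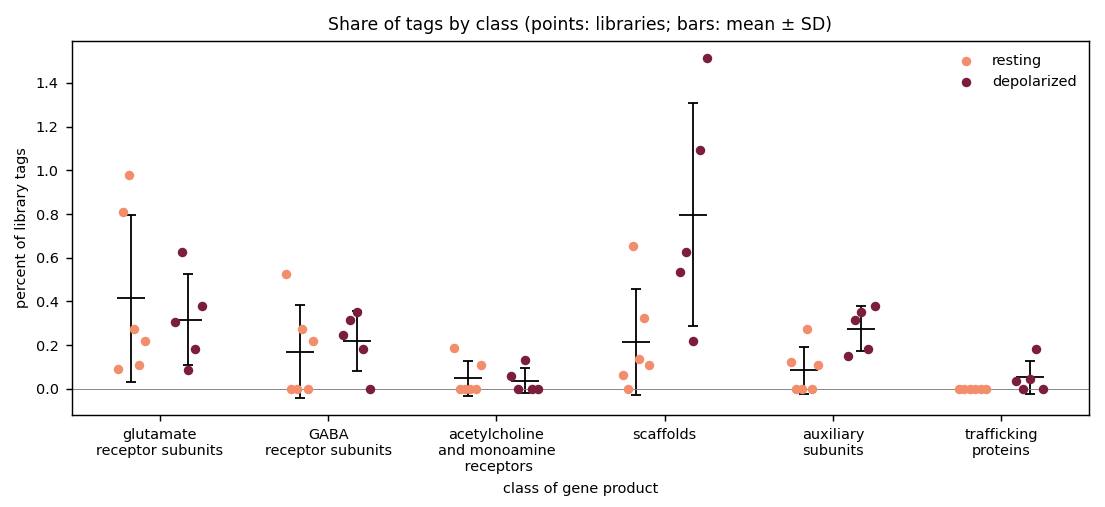
Percent of each library's tags by class of gene product, for resting and depolarized libraries; each point is a library, and the bars are the mean ± SD. Scaffold points average 0.214% at rest and 0.798% after depolarization and overlap between conditions, while the points of each receptor class overlap between conditions.

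Among scaffolds, Homer1 had the most tags. Homer proteins bind group I metabotropic glutamate receptors and Shank, and Homer1 also gives a short, activity-induced form. In resting replicates 1 to 6, tags on its 5′ UTR numbered 1, 0, 1, 0, 0 and 1, against 15, 1, 1, 4 and 0 in depolarized replicates 1, 2, 3, 4 and 6. Depolarized replicates 1 and 4 stood above every resting library in tags, and depolarized replicate 6 had none. Scaled to depth, Homer1 averaged 779 CPM ± 1291 (SD, n = 6) in resting and 2327 CPM ± 2979 (SD, n = 5) in depolarized neurons, and the ranges overlapped. Its 1 tag in the small resting replicate 3 amounts to 3268 CPM, above 4 of the 5 depolarized libraries. The 4 tags of depolarized replicate 4, or 7286 CPM, made most of the difference between means, which was 1548 CPM with all libraries and 308 CPM without that one (exact permutation P = 0.292 and 0.7). On summed tags, 3 at rest and 21 after depolarization, the ratio was 4.87 (exact interval 1.45 to 25.5), and the pooled exact binomial test gave P = 0.00434, or 0.296 after Benjamini-Hochberg adjustment over all 3280 tagged 5′ UTRs. With the spread between libraries in the fit, edgeR gave a log2 fold change of 2.15 (SE 1.12, adjusted P = 0.596). Without the scaffold Homer1, the class still had 6 resting and 28 depolarized tags.

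Dlg4 encodes PSD-95, the main membrane-associated guanylate kinase of the excitatory postsynaptic density. It had 0, 0, 0, 1, 1 and 0 tags at rest and 6, 2, 0, 0 and 3 after depolarization. In tags, depolarized replicates 1, 2 and 6 were above every resting library, and depolarized replicates 3 and 4 had none. Scaled to depth, depolarized replicate 1 at 1145 CPM lay below resting replicate 4 at 1372 CPM. Mean levels were 408 CPM ± 639 (SD, n = 6) and 2921 CPM ± 4801 (SD, n = 5). The 3 tags among the 264 of depolarized replicate 6 made most of this difference, which went from 2512 to 402 CPM without that library, and the edgeR log2 fold change was then 1.25 (adjusted P = 0.827). The summed ratio was 3.83 (0.836 to 35.5, exact binomial P = 0.0654), and edgeR gave a log2 fold change of 2.07 (SE 1.21, adjusted P = 0.637). Compared only within replicate numbers, in an exact test with the replicate block, 11 depolarized tags stood against 6.26 expected from depth (P = 0.00355). That test leaves out resting replicate 5, which has no partner, and so 1 of the 2 resting tags. With the same block in edgeR, which counts the spread between libraries, P was 0.126 and adjusted P 0.996. In other experiments of the study neurons carried a construct with UTRs of PSD-95. The sources used here do not say whether the neurons taken for CLIP did, and its part in the Dlg4 tags was not tested.

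The remaining scaffolds were sparser. Shank1, which ties GKAP to Homer, had no resting tags and 1 and 2 tags in depolarized replicates 1 and 3. GKAP proteins, which bridge PSD-95 and Shank, come from the Dlgap genes. Dlgap1 had 2 tags in each of depolarized replicates 1 and 3 and none at rest. Dlgap3 had 1 tag at rest, in replicate 1, and 4 after depolarization, 3 of them in replicate 1. Dlgap4 had 3 tags at rest (1 in replicate 3 and 2 in replicate 5) and 4 after depolarization, a ratio of 0.928 (0.157 to 6.34). None of these 4 genes passed the pooled test, with exact binomial P values of 0.25 for Shank1 and Dlgap1, 0.625 for Dlgap3 and 1 for Dlgap4. Dlg1 and Dlg3, relatives of PSD-95, had 1 depolarized tag each.

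Among ionotropic glutamate receptors, Grin2b, an NMDA receptor subunit common in young cortex, was tagged most evenly. It had 1, 1, 0, 1, 0 and 1 tags at rest and 2, 2, 1, 1 and 0 after depolarization. The levels, 912 CPM ± 1044 (SD, n = 6) and 947 CPM ± 943 (SD, n = 5), differed by less than the spread between libraries, with a summed ratio of 1.04 (0.248 to 5.03) and an edgeR log2 fold change of 0.45 (SE 1.18, adjusted P = 0.949). A non-coding gene, Gm26653, overlaps the Grin2b 5′ UTR on the opposite strand, and the sources do not say whether strand was used in counting, so its tags are uncertain. Grin1, the obligatory NMDA receptor subunit, had no resting tags, 2 in depolarized replicate 1 and 1 in depolarized replicate 6. That is 3 counts, too few for a fold, with a pooled exact binomial P = 0.25 and P = 0.0860 within replicate numbers. Grin3a had 2 tags, both in depolarized replicate 1.

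Grik5, a kainate receptor subunit that needs a partner subunit to form a channel, had 1 tag at rest, in replicate 1, and 6 and 1 in depolarized replicates 1 and 2. The other 8 libraries had none. The ratio of 4.87 (0.626 to 220) rests on 1 resting tag, with an exact binomial P = 0.125 on the sums and P = 0.271 within replicate numbers, where replicate 1 is compared with itself.

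The metabotropic glutamate receptors were split. Grm5, a group I receptor bound by Homer, had 1, 2, 0, 1, 0 and 0 tags at rest and 2, 2, 1, 0 and 0 after depolarization, a ratio of 0.870 (0.187 to 4.39). Grm7, a presynaptic receptor, had 3 resting and 2 depolarized tags, and a gene on the opposite strand, Gm20387, overlaps its 5′ UTR. Both tags of Grm2, a group II receptor, fell in resting replicate 3, and Grm3 had 1 depolarized tag. Over the 4 genes there were 9 resting and 8 depolarized tags.

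GABA-A receptor subunits showed no common direction. Gabra3, the alpha-3 subunit, had 6 tags in resting replicate 1 and none in the other resting libraries, and 3, 3, 3, 0 and 0 tags after depolarization. Levels were 310 CPM ± 760 (SD, n = 6) and 1005 CPM ± 1310 (SD, n = 5), and the summed ratio was 1.04 (0.332 to 3.56). edgeR gave a log2 fold change of 0.72 (SE 1.10, adjusted P = 0.908). Resting replicate 1 alone sets the resting value of Gabra3: without it, 0 resting and 9 depolarized tags are left, and the pooled test called the gene higher. Gabra5 had no resting tags and 4 after depolarization, 3 of them in replicate 1, and these are uncertain because its 5′ UTR overlaps another gene on the opposite strand. Gabra4, with 2 resting tags and 1 depolarized, has such an overlap too, and Gabrb2 had 1 and 1.

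The GABA-B receptor is a pair of unlike subunits, and its genes differed in tags. Gabbr1, which binds GABA, had 7, 0, 0, 0, 0 and 2 tags at rest and 4, 0, 0, 0 and 0 after depolarization. All but 2 of its 13 tags therefore came from replicate 1. Levels were 727 CPM ± 1126 (SD, n = 6) and 153 CPM ± 341 (SD, n = 5). The summed ratio was 0.309 (0.0696 to 1.11, exact binomial P = 0.0574), and edgeR gave a log2 fold change of -1.46 (SE 1.16, adjusted P = 0.829). Gabbr2, which couples to the G protein, had no resting tags and 1 and 2 in depolarized replicates 1 and 3. Whether the 2 genes differ in response was not tested.

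Acetylcholine and monoamine receptors had 1 to 3 tags each. The muscarinic receptor Chrm2 had 1 tag in each of depolarized replicates 1 and 3, Chrm3 had 1 in depolarized replicate 3, and the nicotinic subunit Chrnb2 had 1 in each condition. Of the noradrenaline receptors, Adra2a and Adra2c each had 2 tags in resting replicate 1, with 1 depolarized tag for Adra2c and none for Adra2a, and Adra1a had 1 depolarized tag. The dopamine receptor Drd1 and the serotonin receptor Htr2a had 1 tag each, in resting replicate 1. Counts of this size do not separate the conditions.

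Among auxiliary subunits, Cnih3, a cornichon that accompanies AMPA receptors, had 2, 0, 0, 0, 0 and 1 tags at rest and 3, 0, 3, 1 and 0 after depolarization. Levels were 286 CPM ± 468 (SD, n = 6) and 741 CPM ± 809 (SD, n = 5), with overlapping ranges, a ratio of 1.62 (0.371 to 9.73) and an edgeR log2 fold change of 1.01 (SE 1.20, adjusted P = 0.881). Neto1, which accompanies kainate receptors, had 1 tag at rest, in replicate 1, and 1, 3, 3, 0 and 1 tags after depolarization. It was tagged in 4 of 5 depolarized and 1 of 6 resting libraries, the ratio of 5.57 (0.747 to 247) again rests on 1 resting tag, and the exact binomial P = 0.0703 became 0.241 within replicate numbers. Cnih2 had 1 resting and 3 depolarized tags, all in replicate 1. Shisa4 had 2, both in resting replicate 4, and Neto2, Shisa2 and Shisa9 had 1 depolarized tag each, as did Shisal1, which was placed in no class. The trafficking genes Grip1 and Pick1, whose proteins bind AMPA receptor tails, and Iqsec1 and Iqsec3, exchange factors for Arf GTPases, had 1 depolarized tag each. Of the sparsely tagged genes, Chrm2, Chrm3, Grip1, Neto2 and Pick1 also have a 5′ UTR that overlaps another gene, so their tags are uncertain.

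Read across all 5′ UTRs, the pooled exact binomial test at the study's threshold of P below 0.2 called 4 of the 44 genes higher after depolarization, Homer1, Dlg4, Neto1 and Grik5, and 1 lower, Gabbr1. That is 9.09% higher beside 5.21% of the 3280 tagged 5′ UTRs, and 2.27% lower beside 4.51%. After adjustment none of the 44 passed at 0.05. More depth-scaled tags after depolarization were seen for 30 of the 44 genes (68.2%), beside 52.7% of all tagged 5′ UTRs. In the paired form of the exact test, within replicate numbers, 3 genes were called higher, Homer1 (P = 0.00396), Dlg4 and Grin1, beside 4.36% of 3190 5′ UTRs, and 3 lower, Gabbr1 (P = 0.0787), Adra2a and Grm2, beside 10.1%. The last 2 had 2 tags each. Homer1 was called higher in the pooled test with any 1 library left out, but the other calls each hung on single libraries. Dlg4 was not called without resting replicate 1 or depolarized replicate 1, Grik5 without depolarized replicate 1 or 2, Neto1 without depolarized replicate 2 or 3, and Gabbr1 without resting replicate 1 or depolarized replicate 3. With both libraries of replicate 1 left out, an alternative chosen after seeing the data, 2 genes were called higher, Neto1 and Gabra3, and 0 lower, and Homer1 was not among them. The share of all 5′ UTRs called is not given for settings with libraries left out.

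**Figure D4:**
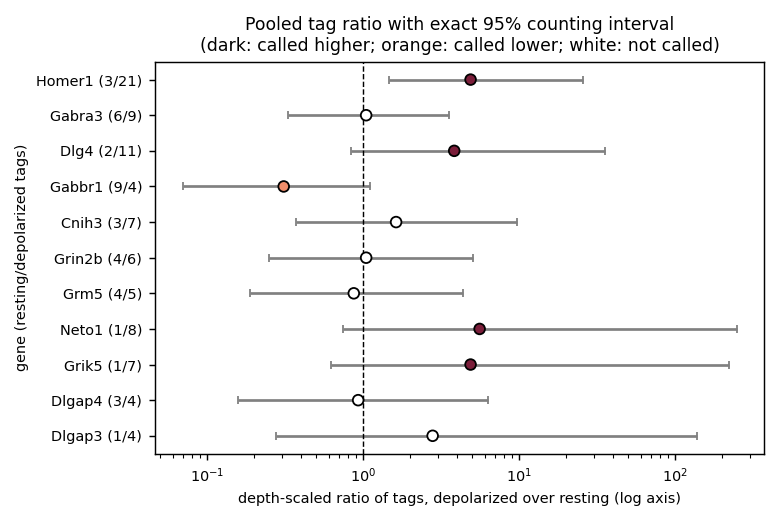
Depth-scaled ratio of summed tags, depolarized over resting, on a log axis, for the genes tagged in both conditions with more than 3 tags in at least 1 of them; whiskers are exact 95% counting intervals, and resting and depolarized tags are in parentheses. The interval of Homer1 (1.45 to 25.5) alone among them lies wholly on one side of 1.

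The spread between libraries was wide, with a common dispersion of 1.004 in edgeR. The quasi-likelihood test covered the 317 5′ UTRs with 10 tags or more, and it called 0% higher and 0% lower at an adjusted P of 0.05, where 24 were higher and 1 lower at an unadjusted P below 0.05, and DESeq2 also called 0. The 6 receptor and scaffold genes tested had adjusted P values from 0.596 to 0.949, and none had an unadjusted P below 0.05 in edgeR, while DESeq2 gave Homer1 an unadjusted P of 0.0486. Exact permutation tests of mean CPM over all arrangements of the 11 libraries, which can go down to P = 0.00216, gave P = 0.292 for Homer1, 0.132 for Dlg4, 0.455 for Gabbr1, 0.305 for Cnih3, 0.273 for Gabra3 and 0.952 for Grin2b, and adjusted values from 0.973 to 1. With each of the 11 libraries left out in turn, the difference in mean CPM ran from 308 to 2129 for Homer1, from 402 to 3243 for Dlg4, from -727 to -282 for Gabbr1, from 185 to 640.4 for Cnih3 and from 161 to 1005 for Gabra3. That of Grin2b ran from -252 to 391 and was below 0 in 5 of the 11. The median log2 fold change was 0.86 over these 6 genes and 0.52 over all 317, or 0.74 and 0.38 with library totals in place of TMM scaling. Against the median of 0.52, Homer1 and Dlg4 stood higher, Grin2b near it and Gabbr1 below 0.

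Per kilobase of annotated 5′ UTR, the order of the 6 genes differed by condition. At rest Gabbr1 came first with 2244 CPM per kb ± 3476 (SD, n = 6), then Gabra3 with 1443, Grin2b with 1195, Dlg4 with 852, Homer1 with 505 and Cnih3 with 358. After depolarization Dlg4 came first with 6097 CPM per kb ± 10022 (SD, n = 5), then Gabra3 with 4674, Homer1 with 1510, Grin2b with 1241, Cnih3 with 929 and Gabbr1 with 471. Neighbours in both orders differed by less than the spread between libraries.

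A GENCODE M21 5′ UTR was found for 43 of the 44 genes, Shisa9 being the exception, with a median length of 468 bases beside 355.5 over 3316 listed 5′ UTRs, and a median GC content of 65.3% beside 64.3%. CGCGGC, searched on the transcript strand, occurred in 20 of the 43 (46.5%, Wilson 95% interval 32.5 to 61.1) beside 36.0% of all listed 5′ UTRs. Per kilobase it occurred 1.67 times beside 1.38. The 20 genes held 106 of 189 tags (56.1%), beside 45.1% for all listed 5′ UTRs with the hexamer. Homer1, Dlg4, Gabbr1, Cnih3, Grik5 and Neto1 had the hexamer, and so did Dlgap1 and Gabra5, while Gabra3, Grin2b, Grm5, Grin1 and Shank1 did not. All 5 genes called by the pooled test, 4 higher and 1 lower, held the hexamer, which was in 147 of the 315 5′ UTRs with a sequence that the test called in all (46.7%), 53.0% of those higher and 39.5% of those lower. An ATG upstream of the main start codon occurred in 36 of the 43 (83.7%) beside 73.2%, with 6 in Homer1, 9 in Grin2b, 8 in Grm5, 2 in Dlg4 and 0 in Gabra3 and Gabbr1.

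**Figure D5:**
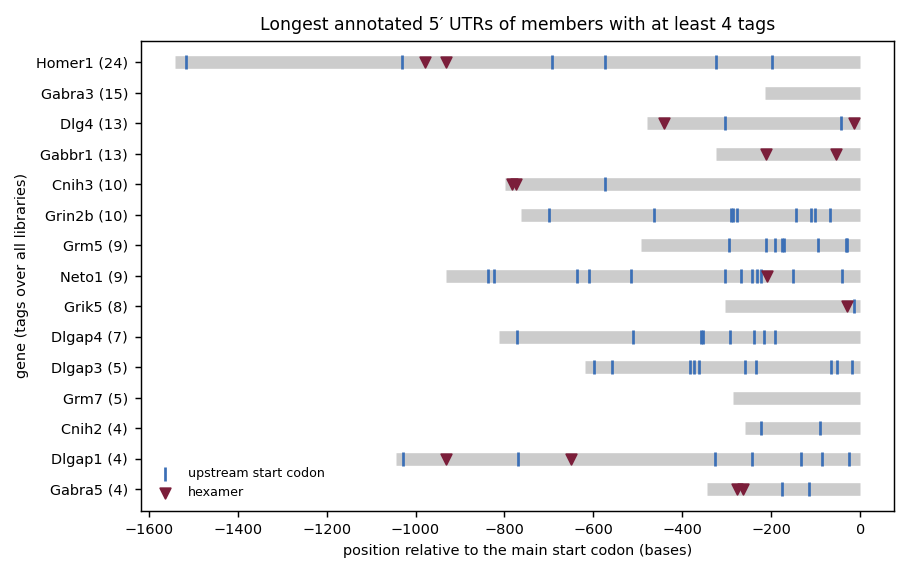
Longest annotated 5′ UTR (grey bars, drawn to scale in bases from the main start codon at 0) of 15 genes with 4 or more tags, with the hexamer CGCGGC as triangles and upstream start codons as ticks. Tags over all libraries are in parentheses. The Homer1 5′ UTR is the longest, at 1541 bases, and its 2 hexamers lie in its middle, whereas those of Dlg4 lie near both ends.

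Other genes of the postsynapse, from a list of 93 of which 57 were in the tables, had 148 resting and 235 depolarized tags. The pooled test called 4 of the 56 tagged ones higher (7.14%), Agap2, Lrrc4b, Dag1 and Arf6, and 1 lower (1.79%), Lrrc4c. All tags of Dag1 (7) and Arf6 (6) came from depolarized replicate 1. Nrxn2, a presynaptic adhesion gene, had 23 tags and was not called. Of the 56, 29 (51.8%) had more depth-scaled tags after depolarization, beside 68.2% for the receptor and scaffold genes and 52.7% for all tagged 5′ UTRs.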

How the data were processed

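The authors sequenced single-end CLIP libraries, filtered and demultiplexed reads with CLIP Tool Kit, collapsed exact duplicates, aligned to mm10 with Rsubread (at most 5 mismatches, minimum length 20) and counted reads on UCSC known gene 5′ UTRs with summarizeOverlaps, taking the longest transcript of each gene. The authors deposited raw counts per library, neither normalized nor pooled. The submitters' processing notes also name cutadapt. The use of strand and the treatment of multiply mapped reads are not given in the sources used here, so tags of overlapping genes and close copies are uncertain.

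Of 3367 rows, 1 had no gene name and no tags and was left out. The paper speaks of 5 biological replicates and the labels of 6 per condition. Depolarized replicate 5, a copy of resting replicate 5, entered only an alternative fit. Groups come from the labels. The members and lists were chosen with earlier results of these data known.

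For each condition the tags were added up, brought to the mean of both totals, rounded and compared by an exact two-sided binomial test, called at P below 0.2 (pseudocount 0.1 for log2 fold changes). edgeR 4.0.16 (R 4.3.3) used TMM, quasi-likelihood tests, condition as the only term and Benjamini-Hochberg adjustment over 5′ UTRs with at least 10 tags. DESeq2 1.42.0, exact permutation tests, other scalings, filters, thresholds and libraries left out were alternatives. Ratios have exact conditional 95% intervals, shares Wilson intervals, and 0 counts a floor of 3. All cover counting error only and leave out the spread between libraries. No molecular identifiers are stated. Scripts (Python 3.11.15, scipy 1.17.1) were tested on simulated data. 5′ UTR sequences and positions are from GENCODE M21 (GRCm38), the longest 5′ UTR per gene, which may differ from the UCSC model counted.

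The labels and the paper state that resting and depolarized material was combined once barcodes had been added at reverse transcription. That samples with the same number shared a pool is inferred from this, and the numbers were treated as pairs on that basis. Deviations of same-numbered libraries from their condition means correlated at 0.244, 0.165, 0.0976, 0.148 and 0.126 for numbers 1, 2, 3, 4 and 6. The highest correlations with a library of another number were 0.156, 0.0228, 0.131, 0.172 and 0.110. For numbers 3 and 4 these were above the same-number value. The pairing is therefore an assumption, which the data bear out only in part. The exact test within replicate numbers sums, over the 5 pairs, binomial counts whose odds are set by each pair's depth.

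Named genes were those with at least 10 tags, those called by the pooled test, the 5 with the smallest edgeR P value, the 5 tagged in the most libraries and a fixed set of core postsynaptic genes: Cnih3, Dlg4, Gabbr1, Gabra3, Grik5, Grin1, Grin2b, Grm5, Homer1, Neto1 and Shank1. Some genes are not reported here by name and stay in the totals. Others are named as counts in their class, after their values were seen.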

Additional observations from a re-analysis of the deposited data

Results flagged for a closer look

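In 5 of 16 groups of libraries, over total tags and the CPM of genes, 1 library stood farther from its nearest neighbour than Dixon's 95% critical value allows. That value is made for normal data, where about 1 in 20 groups would pass, or 0.8 of 16. These counts are sparse, and a gene tagged in 1 library of a group always passes. The 5 groups can therefore not be set against 0.8. Resting replicate 1 held 3224 tags in all, and the next resting library 928. Homer1 stood at 3268 CPM in resting replicate 3, from 1 tag, with the next resting library at 1095 CPM. Gabra3 was at 1861 CPM in resting replicate 1 and at 0 in the other resting libraries. Dlg4 was at 11360 CPM in depolarized replicate 6, from 3 tags, with the next at 2094 CPM. Gabbr1 was at 763.4 CPM in depolarized replicate 1 and at 0 in the other depolarized libraries. Depth differs between these libraries, and its part in these values was not tested.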

How the results depend on the processing

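The pooled test called 4 of the 44 genes higher and 1 lower. At P below 0.05 it called 1 and 0, at an adjusted P below 0.05 0 and 0, and with at least 10 tags 2 higher. TMM library sizes gave 6 higher, adding Dlgap1 and Gabra5. For the pooled test, the share of all 5′ UTRs called is given only as reported and within replicate numbers. Counts under the other settings therefore show nothing particular to these genes. Leaving out each library in turn gave 2 to 4 higher and 0 to 3 lower. Without resting replicate 1, Dlg4 and Gabbr1 were not called, Gabra3 was called higher, and Grm2, Grm7 and Shisa4 were called lower, 3 in all. Without depolarized replicate 1, 2 were higher, and Dlg4 and Grik5 were not called. Without depolarized replicate 3, Neto1 and Gabbr1 were not called, and without depolarized replicate 2 Grik5 and Neto1 were not, while Dlgap1 and Gabra5 were called higher. Replicates 1 to 3 alone gave 2 higher, and replicates 4 to 6 alone 2 higher and 0 lower. Without replicate 1 in both conditions, an alternative chosen after seeing the data, 2 were higher and 0 lower, and Homer1, Dlg4, Grik5 and Gabbr1 were not called. The replicate block, as an exact test within replicate numbers, gave 3 higher and 3 lower. Grik5 and Neto1 were then not called, while Grin1 was called higher and Adra2a and Grm2 lower. With the replicate block in edgeR none of the 6 genes tested was called, the lowest adjusted P being 0.996. The block was not applied to shares or class ratios. The share of tags after depolarization moved from 1.70% to 2.18% without the 10 5′ UTRs with the most tags, and the resting share from 0.932% to 1.18%. The cause of these shifts was not tested beyond the libraries and thresholds named. The other 91 main values recomputed under an alternative stayed within 1.5 times of a count or within the error of a share, which does not say that the genes called were the same. The 84 edgeR fold changes of single genes under alternatives kept their direction, and none passed the threshold. They cover only fits in which the gene passed the tag filter. Without depolarized replicate 1 only 1 of the 6 genes was tested, and without resting replicate 1 only 2. For the others, the edgeR direction without these libraries is not known. All of these results rest on few tags: 15 of the 44 genes had 1 tag.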
